A study of Mus musculus with 4 samples.

Results

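Isolated H3K4me3 windows are short stretches of the mouse genome that carried the histone mark H3K4me3 and had no other H3K4me3 stretch within 200 kb on either side. The autosomes were cut into 4 kb tiles, and a tile counted when it held at least 20 H3K4me3 reads and when these, scaled to the whole-cell extract (WCE) total, reached 2.5 times the larger of the WCE reads and 3. Adjoining counted tiles were taken as 1 run. Of 615612 autosomal tiles, 13800 counted (2.24%) and formed 10775 runs. Of these runs, 816 were isolated (7.57%, 95% exact interval 7.08 to 8.09%), and they cover 1056 tiles or 4.22 Mb. The windows were chosen by their H3K4me3 and WCE reads, so values of both libraries inside them are given as a description, with no test.

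The reads come from MDER 10T cells, fibroblasts with an estrogen-inducible MyoD1 according to the title of the series, grown in DMEM/F12 free of phenol red with 10% FCS. Estrogen is not among the treatments the labels record. The H3K4me3, H3K27me3 and H3K9me3 groups are immunoprecipitated chromatin and the WCE group is sonicated chromatin without immunoprecipitation. Each group is 1 library, so there is no replicate spread, and each comparison is between libraries of the same kind of cells and not between conditions. Whether the 4 libraries share a culture is not given in the labels, and the fibroblast label could not be checked against marker genes, since positions were not assigned to genes. Distinct autosomal reads numbered 3086567 for H3K4me3, 2933567 for H3K27me3, 2101444 for H3K9me3 and 2977697 for WCE. All intervals are 95% exact (Clopper-Pearson) intervals and cover counting error only. Reads were amplified without molecular identifiers and need not be separate molecules, so even counting error may be understated. Intervals for a share of runs take the runs as independent draws, which neighbouring runs need not be. Positions are mm8, counted from 1.

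H3K4me3 is laid down by the SET1 and MLL methyltransferase complexes and is concentrated on nucleosomes beside transcription start sites, above all at promoters rich in CpG. H3K27me3 is deposited by Polycomb repressive complex 2 and can lie over the same promoters as H3K4me3, while H3K9me3 is typical of silent, repeat-rich chromatin. Mammalian genes are unevenly spread, so stretches of H3K4me3 crowd together in gene-dense regions and stand far apart in gene deserts.

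The isolated windows carried H3K4me3 at nearly the level of runs with close neighbours. An isolated window held a median of 97.5 H3K4me3 reads (lowest 20, highest 859), against 106 in the 9959 other runs (20 to 1345). Per tile the pooled level was 92.7 H3K4me3 reads in isolated windows and 96.1 in the other runs, a ratio of 0.965 (0.958 to 0.971). WCE stood at 12.6 reads per tile in isolated windows and 14.1 in the other runs. After scaling, the pooled H3K4me3 level over WCE was 7.08 (6.95 to 7.21) in isolated windows and 6.56 (6.53 to 6.60) in the other runs. These windows held 97924 H3K4me3 reads, which is 3.17% of autosomal H3K4me3 reads against 0.448% of autosomal WCE reads, and 7.40% of the H3K4me3 reads in all runs.

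Along the distance to the nearer counted tile, the H3K4me3 level changed little until that distance passed 500 kb. The median was 107 reads where the nearer tile lay within 20 kb, 105 from 20 to 50 kb, 105 from 50 to 100 kb and 103 from 100 to 200 kb. Among the isolated windows it was 105 reads from 200 to 300 kb (315 windows), 102 from 300 to 500 kb (247), 89 from 500 to 1000 kb (187) and 84 beyond 1000 kb (67). WCE moved with it, from a median of 15 reads at 200 to 300 kb to 12 beyond 1000 kb. The median scaled ratio, with WCE taken as at least 3 reads, was 6.62, 6.40, 6.99 and 7.42 over those 4 isolated classes. Pooled per tile, H3K4me3 was 93.0, 92.0, 92.1 and 96.2 reads over the 4 classes, so the lower median of the remote windows was not matched by a lower pooled level. In bulk chromatin, fewer cells with the mark and less of the mark per cell cannot be told apart.

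**Figure D1:**
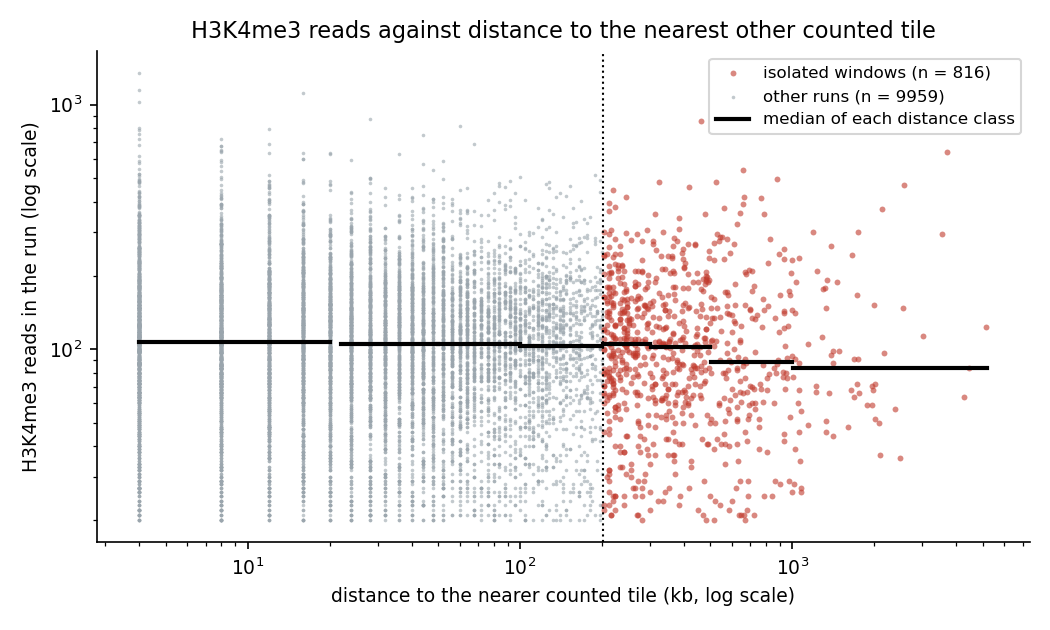
H3K4me3 reads per run (y axis, log scale) against the distance in kb to the nearer counted tile (x axis, log scale), with isolated windows in red, other runs in grey and the median of each distance class as a black bar. The medians lie between 102 and 107 reads up to 500 kb and at 89 and 84 beyond, and the dotted line marks the isolation distance.

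The windows with most H3K4me3 were short runs of several tiles. The leading window, chr8:95240001-95256000, held 859 H3K4me3, 56 H3K27me3, 53 H3K9me3 and 78 WCE reads, an H3K4me3 ratio to WCE of 10.6 (8.42 to 13.6). Its 4 tiles held 44, 428, 225 and 162 H3K4me3 reads against 8, 40, 13 and 17 WCE reads. H3K4me3 was highest in the second tile and lowest in the first, and so was WCE. Next came chr5:58000001-58012000 with 640 H3K4me3 and 52 WCE reads (11.9, 8.94 to 16.1) and chr13:73088001-73108000 with 540 and 59 (8.83, 6.74 to 11.8). The windows chr14:27328001-27340000 (495 H3K4me3 and 59 WCE reads) and chr1:122420001-122436000 (481 and 52) complete the leading 5. In the order named, their nearer counted tiles lay at 460, 3712, 656, 876 and 324 kb.

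Most isolated windows were 1 tile long. A single tile made up 606 windows (74.3%, 71.1 to 77.2%), against 76.4% (75.6 to 77.2%) of the other runs, and among the isolated windows 189 had 2 tiles, 13 had 3, 7 had 4 and 1 had 5. The longest isolated window, chr13:73088001-73108000, held 65, 179, 211, 28 and 57 H3K4me3 reads in its 5 tiles, against 11, 28, 5, 9 and 6 WCE reads. H3K4me3 therefore peaked in the middle tile, where WCE was at its lowest. In chr3:5192001-5208000 the 4 tiles held 29, 64, 119 and 29 H3K4me3 reads against 4, 7, 10 and 3 WCE reads. This window was also the first counted run of its chromosome, with no counted tile on its lower-coordinate side. The reads of chr12:34540001-34556000 were highest in its first tile, at 247, 78, 89 and 67 H3K4me3 reads against 18, 16, 14 and 13 WCE reads. By contrast, chr11:79516001-79532000 had no single crest, with 43, 146, 91 and 140 H3K4me3 reads against 10, 15, 10 and 24 WCE reads.

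Windows that stood out most over WCE were single tiles with few WCE reads, so their ratios are wide. The first, chr6:22824001-22828000, held 103 H3K4me3 reads and 2 WCE reads (49.7, 13.4 to 416). The tile at chr13:105936001-105940000 held 108 and 4 reads (26.05, 9.88 to 97.3), and chr5:18736001-18740000 held 134 and 5 (25.9, 10.8 to 80.9). In chr8:33472001-33476000 the ratio was best determined of the 5, with 225 H3K4me3 and 9 WCE reads (24.1, 12.5 to 53.4). The fourth by ratio, chr11:108736001-108740000, held 77 and 3 reads (24.8, 8.16 to 123), and with them 32 H3K27me3 and 10 H3K9me3 reads. WCE had 0 reads in 2 isolated windows. One of these, chr12:45944001-45948000, held 38 H3K4me3 reads, a scaled ratio of 12.2 with WCE taken as 3 reads. The other, chr13:62136001-62140000, held 21 H3K4me3 reads, a ratio of 6.75 on the same floor. Counting error is not included in these 2 values. Its flanks held 0.225 WCE and 0.175 H3K4me3 reads per tile, so few reads with 1 position lay anywhere near it, and 15 H3K4me3 reads with 2 reported positions fell in the window.

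The windows farthest from any neighbour lay in stretches of several Mb without another counted tile. The most remote, chr14:92772001-92776000, had its neighbours 5452 kb below and 5152 kb above, and held 123 H3K4me3, 11 H3K27me3, 2 H3K9me3 and 16 WCE reads. It was followed by chr16:70196001-70200000, 4460 kb from its nearer neighbour, with 84 H3K4me3 and 7 WCE reads. After it came chr1:113692001-113696000, 4272 kb away, with 64 and 4 reads. The runs chr5:58000001-58012000 and chr5:82092001-82100000, at 3712 and 3556 kb, held 640 and 296 H3K4me3 reads against 52 and 26 WCE reads. The flanks of these 5 windows, from 20 to 100 kb on both sides, held 0.525 to 2.90 H3K4me3 reads and 1.975 to 3.475 WCE reads per tile. The highest tiles of these windows held 64 to 350 H3K4me3 reads. A contrast with the flanks is built into the rule, so it is a description only. In all, 67 isolated windows had more than 1 Mb to the nearer counted tile, and 369 had more than 1 Mb on at least one side.

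At the edges of the rule the values ran on without a break. Isolated windows with exactly 20 H3K4me3 reads numbered 4 and those with 21 numbered 9, while 6 equally isolated tiles with 19 reads and 6 with 18 met the ratio but fell short of the read minimum. The lowest ratio of a member was 2.53, and the highest below the limit, in a tile with at least 20 reads, was 2.49. For the distance, 22 windows had their nearer neighbour at 204 kb and were members, and 13 runs had theirs at 200 kb and were not. Distances come in steps of 4 kb.

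The H3K4me3 in an isolated window was narrow. The shortest span holding 50% of the H3K4me3 reads of a run and its adjoining 4 kb had a median of 579 bp in isolated windows (10th to 90th percentile 260 to 1383 bp) and 571 bp in the other runs (255 to 1591 bp). For 90% of the reads it was 2957 bp in isolated windows and 3436 bp in the other runs. In the other runs this wider span can take in reads of a neighbouring run, so it is not a measure of 1 stretch alone. Within the isolated set the median 50% span was 505 bp for single tiles, 909 bp for runs of 2 tiles and 2730 bp for runs of 3 to 5. The narrowest window, chr13:62136001-62140000, had 50% of its reads within 43 bp. Over the whole window its reads lay on 10 forward and 11 reverse positions. Reads fell on both strands in all 816 windows, with a median of 53.2% on the more frequent strand and 81.8% at most.

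Summed over the isolated windows and aligned on the centre of the 50% span, H3K4me3 reached 22.05 scaled reads per window in the 250 bp before the centre and 21.5 in the 250 bp after it. At 1000 to 1250 bp after the centre it was down to 3.30. The centre was set from these same H3K4me3 reads, so a crest of H3K4me3 there is built into the alignment. The other libraries crested in the same place at lower levels. H3K27me3 reached 1.62 and 1.67 scaled reads in the same 2 bins, H3K9me3 1.98 and 1.96, and WCE 1.70 and 1.71. WCE received no antibody, and it crested at the centre too. The rule used WCE inside the windows, so its crest is a description and no yardstick for the marks. In the other runs the H3K4me3 crest was 23.6 and 23.5 scaled reads, that of WCE 1.91 and 1.87.

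**Figure D2:**
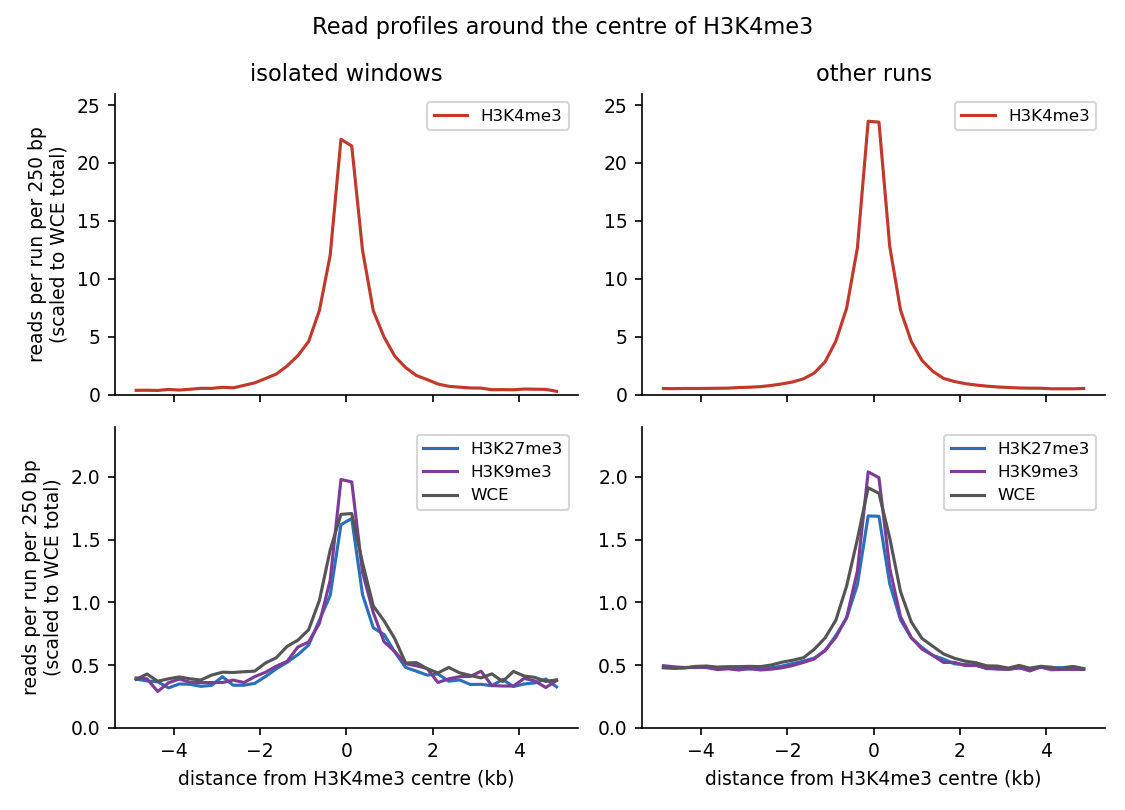
Scaled reads per run in 250 bp bins (y axis) by distance in kb from the H3K4me3 centre (x axis), for isolated windows on the left and other runs on the right, with H3K4me3 above and the other 3 libraries below on their own scale. H3K4me3 crests at 22.05 scaled reads in isolated windows and 23.6 in other runs, and H3K27me3, H3K9me3 and WCE crest near 2 or below in both. The centre was set from the H3K4me3 reads, so the H3K4me3 crest is built into the alignment.

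Isolated windows were found on all 19 autosomes, and their share of the runs differed between chromosomes. These shares are a description. Isolation of a run depends on its neighbours, so runs are not independent draws and the intervals of the shares may be too narrow. The share was highest on chromosome 13, with 58 of 413 runs (14.0%, 10.8 to 17.8%), chromosome 18, with 42 of 315 (13.3%, 9.78 to 17.6%), and chromosome 3, with 70 of 546 (12.8%, 10.1 to 15.9%). It was lowest on chromosome 11, with 29 of 888 (3.27%, 2.20 to 4.66%), and chromosome 7, with 33 of 790 (4.18%, 2.89 to 5.82%). Chromosome 11 had the most runs per Mb of all autosomes, 7.29, while chromosomes 13, 18 and 3 had 3.42, 3.47 and 3.42. Chromosomes 14 and 1 had the fewest runs per Mb, 2.95 and 3.06, and isolated shares of 8.20% (5.60 to 11.5%) and 9.95% (7.68 to 12.6%). The median H3K4me3 level of the isolated windows ran from 71 reads on chromosome 4 to 136 on chromosome 19.

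Many isolated windows were next to one another along a chromosome. Of the 816, 500 stood in rows of at least 2 isolated windows with no other run between them, and 316 had non-isolated runs or a chromosome end on both sides. The longest row held 8 isolated windows over 7.90 Mb of chromosome 6 (58568001 to 66468000). Rows of 7 lay on chromosome 4 over 10.6 Mb (71684001 to 82332000), chromosome 5 over 5.61 Mb, chromosome 16 over 12.05 Mb and chromosome 18 over 2.95 Mb. Within 1 Mb of an isolated window there was a median of 5 further runs, against 16 for the other runs, but the range among isolated windows was 0 to 41. An isolated window can therefore lie just beyond a dense cluster, and 70 had no run starting within 1 Mb.

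The surroundings held fewer reads of every library than those of other runs. In uncounted tiles 20 to 200 kb from isolated windows, which span 283 Mb, there were 3.08 H3K4me3, 4.88 H3K27me3, 3.42 H3K9me3 and 5.05 WCE reads per tile. In the surroundings of other runs, with counted tiles left out, the same levels were 4.57, 7.23, 4.61 and 6.39, and over all uncounted autosomal tiles 2.93, 4.60, 3.28 and 4.63. After scaling by library totals, H3K4me3 over WCE was 0.588 (0.584 to 0.591) in these surroundings, 0.690 (0.689 to 0.692) in those of other runs and 0.611 (0.610 to 0.612) over all uncounted tiles. The rule used H3K4me3 there, so these values are a description. Whether such a ratio falls below 1 is set by the scaling. When libraries were scaled so that the median 100 kb bin had a ratio of 1, the factors rose by 0.81, 0.31 and 0.08 on the log2 scale for H3K4me3, H3K27me3 and H3K9me3, and H3K4me3 over WCE in the same surroundings became 1.03. Tiles with at least 10 H3K4me3 reads made up 4.56% of the surroundings and 5.20% of all uncounted tiles. Tiles without a read in any library made up 3.61% of the surroundings and 8.20% of all uncounted tiles.

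H3K27me3 over WCE was lower beside isolated windows than beside other runs. It was 0.981 (0.976 to 0.986) in the surroundings of isolated windows, against 1.15 (1.147 to 1.152) in those of other runs. H3K9me3 over WCE was 0.960 (0.955 to 0.965) in the surroundings of isolated windows and 1.02 (1.020 to 1.025) in those of other runs. Over all uncounted tiles the values were 1.01 (1.008 to 1.011) for H3K27me3 and 1.005 (1.003 to 1.007) for H3K9me3. For H3K27me3, the surroundings of isolated windows were thus closer to all uncounted tiles than those of other runs were. H3K27me3 over H3K9me3 was 1.02 around isolated windows, 1.12 around other runs and 1.004 over all uncounted tiles. With the sets of tiles kept fixed, scaling moves all values of a mark over WCE alike, so their order does not depend on it. The side of 1 on which a value falls does depend on it. Scaling of H3K4me3 also changes which tiles count, and the order was not checked with tiles chosen anew. From the edge of an isolated window outwards, H3K4me3 over WCE was 0.875 at 0 to 4 kb, 0.641 at 4 to 8 kb and 0.583 at 140 to 200 kb, so most of the drop lay within 8 kb. It was 0.617 (0.597 to 0.637) at 8 to 12 kb and 0.611 (0.597 to 0.625) at 12 to 20 kb, still above the 0.583 (0.578 to 0.589) of the farthest class. H3K27me3 over WCE went the other way, with 0.855 at 0 to 4 kb and 0.989 at 140 to 200 kb. Its rise was not steady, with 0.939 at 4 to 8 kb and 0.903 at 8 to 12 kb. H3K9me3 over WCE rose too, from 0.901 at 0 to 4 kb to 0.971 at 140 to 200 kb. In reads per tile, H3K27me3 fell from 5.51 at 0 to 4 kb to 4.78 at 140 to 200 kb. H3K9me3 fell from 4.16 to 3.36 reads per tile over the same distances. WCE itself was denser near the windows, at 6.55 reads per tile at 0 to 4 kb and 4.90 at 140 to 200 kb. Reads of H3K27me3 and H3K9me3 thus fell outwards, and only their ratios to WCE rose. Why WCE was denser near the windows was not tested.

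**Figure D3:**
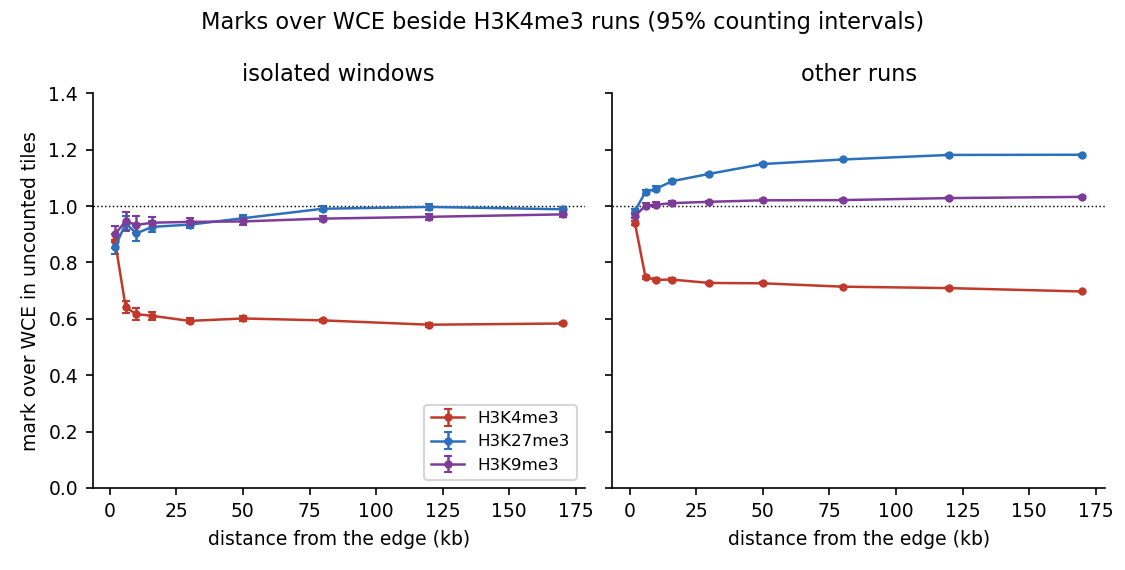
Pooled mark reads over WCE reads after scaling (y axis) in uncounted tiles by distance in kb from the edge of the run (x axis), for isolated windows on the left and other runs on the right, with 95% counting intervals. Beside isolated windows H3K4me3 drops to 0.641 at 4 to 8 kb and H3K27me3 stays at or below 1, while beside other runs H3K27me3 rises to 1.18.

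The surroundings changed with the degree of isolation, and more so for H3K27me3 than for H3K9me3. H3K27me3 over WCE at 20 to 200 kb was 1.10 (1.09 to 1.11) around windows isolated by 200 to 300 kb, 0.981 at 300 to 500 kb, 0.822 at 500 to 1000 kb and 0.661 (0.647 to 0.676) beyond 1000 kb. H3K9me3 over WCE was 0.997, 0.970, 0.903 and 0.840 over the same classes, and H3K4me3 over WCE 0.631, 0.588, 0.533 and 0.455. WCE fell too, with 5.81, 5.15, 4.37 and 3.31 reads per tile. Set directly against each other, which leaves WCE out, H3K27me3 over H3K9me3 in the surroundings was 1.10 (1.09 to 1.11), 1.01 (1.003 to 1.021), 0.910 (0.900 to 0.922) and 0.787 (0.768 to 0.807). Neither of these libraries was used by the rule. Inside the windows, by contrast, H3K4me3 over WCE was 6.82, 6.81, 7.63 and 8.01 over the 4 classes.

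**Figure D4:**
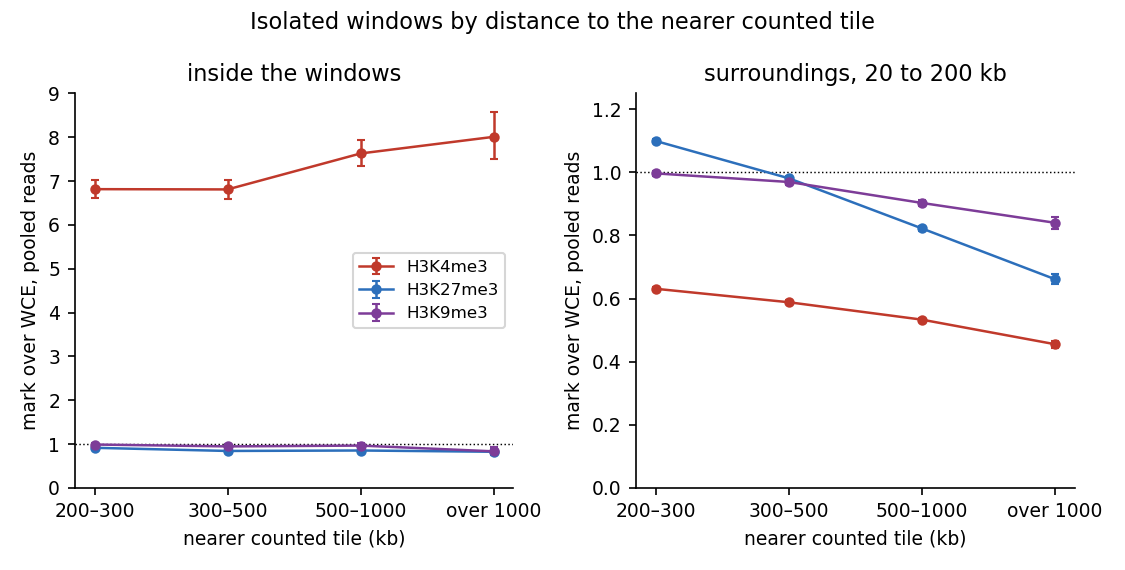
Pooled mark reads over WCE reads after scaling (y axes, on different scales) inside isolated windows on the left and in their surroundings on the right, by distance class to the nearer counted tile (x axis), with 95% counting intervals. In the surroundings H3K27me3 falls from 1.10 to 0.661 and H3K9me3 from 0.997 to 0.840 along the classes, while H3K4me3 inside the windows is 6.81 to 8.01.

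H3K27me3, H3K9me3 and WCE all held more reads per tile in the isolated windows than in their flanks. H3K27me3 held 10.8 reads per tile in the windows and 4.98 in their flanks at 20 to 100 kb, a ratio of 2.18 (2.13 to 2.22). For H3K9me3 the levels were 8.55 in the windows and 3.51 in the flanks, a ratio of 2.44 (2.39 to 2.49). WCE rose by 2.42 (2.38 to 2.46), with 12.6 reads per tile in the windows and 5.23 in the flanks. WCE in the windows was used by the rule, which removes tiles with many WCE reads, so the WCE value is a description and no yardstick for the marks. As a description too, H3K27me3 over WCE in the windows was 0.871 (0.849 to 0.893) after scaling by totals. H3K9me3 over WCE was 0.958 (0.933 to 0.984). With median scaling the values in the same windows were 1.08 and 1.01, so neither mark was far above WCE. The ratios grew with isolation. H3K27me3 in windows over flanks was 1.89, 2.15, 2.65 and 3.97 (3.68 to 4.27) over the classes from 200 to 300 kb to beyond 1000 kb, H3K9me3 2.23, 2.43, 2.75 and 3.24 (2.97 to 3.53), and WCE 2.22, 2.47, 2.54 and 3.28 (3.07 to 3.50). H3K27me3 had the lowest of the 3 ratios up to 500 kb and the highest beyond 1000 kb. For comparison, windows over flanks in the other runs was 1.58 for H3K27me3, 1.91 for H3K9me3 and 2.09 for WCE, so all 3 libraries had the larger ratio at isolated windows, where the flanks were sparser. Per tile, isolated windows held 0.899 times (0.882 to 0.916) the H3K27me3 reads of the other runs and 0.924 times (0.904 to 0.944) the H3K9me3 reads, close to the 0.895 (0.879 to 0.911) of WCE. An isolated window had a median of 11 H3K27me3 reads (0 to 79) and 9 H3K9me3 reads (0 to 86).

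Individual windows with more of one repressive mark were sought by setting H3K27me3 against H3K9me3, neither of which the rule used. A two-sided exact binomial test was run on the 201309 autosomal tiles with at least 10 reads of both marks together, with Benjamini-Hochberg adjustment over them all. The test compares these 2 libraries and covers counting error only. Of the 1056 tiles in isolated windows, 900 had enough reads. H3K27me3 was higher at an adjusted p under 0.05 in 13 of these tiles, where 0.889% of all tested tiles were called in that direction. H3K9me3 was higher in 7, against 0.326% of all tested tiles. In the other runs 146 and 39 of 11413 tested tiles were called. With median scaling, which changed the set to 709 isolated windows, there were 21 and 8 calls in them, against 1.95% and 0.222% of all tested tiles. At an adjusted p under 0.01 there were 3 and 4, against 0.413% and 0.0974%. Tiles in runs hold more reads than the average tile, which makes a call easier, so no excess is read from these counts.

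The 13 tiles called for H3K27me3 held 22 to 58 H3K27me3 reads and 22 to 235 H3K4me3 reads. The first by p, chr9:122420001-122424000, held 51 H3K27me3 and 4 H3K9me3 reads, beside 74 H3K4me3 and 13 WCE reads. H3K27me3 over H3K9me3 was 9.13 there (3.36 to 34.8, adjusted p = 1.95e-05, exact binomial test). In chr3:92164001-92168000 there were 38 H3K27me3 and 5 H3K9me3 reads, beside 42 H3K4me3 and 10 WCE reads (5.44, 2.14 to 17.7, adjusted p = 0.00715, exact binomial test). H3K27me3 was near H3K4me3 in number there, and the flanks held 3.70 H3K27me3 reads per tile. The tile chr5:38108001-38112000 held 28 and 2 reads, beside 23 H3K4me3 and 7 WCE reads. At chr1:120876001-120880000 the numbers were 44 and 8, beside 37 H3K4me3 and 8 WCE reads, and at chr10:121848001-121852000 they were 33 and 4, beside 26 and 4. H3K27me3 reads outnumbered H3K4me3 reads in the last 3 of these 5 tiles. The flanks of the chromosome 10 window, which start 20 kb away, held 3.15 H3K27me3 reads per tile. Those of the chromosome 9 and chromosome 1 windows held 13.25 and 11.3, above the average for isolated windows. How far the mark reached within the first 20 kb was not measured for single windows.

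The most H3K27me3 reads in any isolated window, 79, lay in the 2-tile run chr1:120876001-120884000, with 180 H3K4me3, 15 H3K9me3 and 28 WCE reads. Next were chr18:80868001-80880000, with 73 H3K27me3, 261 H3K4me3, 29 H3K9me3 and 46 WCE reads, and chr10:121848001-121856000, with 61, 65, 10 and 12. In chr11:85648001-85652000, 58 H3K27me3 reads faced 37 H3K4me3, 14 H3K9me3 and 5 WCE reads. A further 58 H3K27me3 reads lay in chr18:37268001-37272000, where 62 H3K4me3, 29 H3K9me3 and 11 WCE reads lay too. All 3 marks outnumbered WCE in that tile, and H3K27me3 and H3K9me3 did not differ there at the threshold (adjusted p = 0.572, exact binomial test).

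The 7 tiles called for H3K9me3 held 15 to 86 H3K9me3 reads and 26 to 390 H3K4me3 reads. Foremost was chr7:46244001-46248000, which held 35 H3K27me3 and 86 H3K9me3 reads, beside 73 H3K4me3 and 27 WCE reads. H3K27me3 over H3K9me3 was 0.292 (0.191 to 0.437, adjusted p = 2.94e-07, exact binomial test). All 4 libraries were above their flanks there, which held 12.35 H3K27me3, 5.325 H3K9me3, 3.85 H3K4me3 and 6.525 WCE reads per tile. The H3K4me3 ratio of this window, 2.61, was close to the limit of 2.5. The tile chr14:13140001-13144000 held 31 H3K27me3 and 67 H3K9me3 reads, beside 58 H3K4me3 and 16 WCE reads, in flanks with 1.925 H3K27me3, 0.775 H3K9me3 and 1.475 WCE reads per tile. The tile chr3:39076001-39080000, held 25 and 54, beside 256 H3K4me3 and 29 WCE reads. At chr13:73096001-73100000, the crest of the longest isolated window, there were 2 H3K27me3 reads and 20 H3K9me3 reads, beside 211 H3K4me3 and 5 WCE reads (adjusted p = 9.47e-04, exact binomial test). The fifth, chr10:17412001-17416000, held 10 and 26, beside 390 H3K4me3 and 36 WCE reads.

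**Figure D5:**
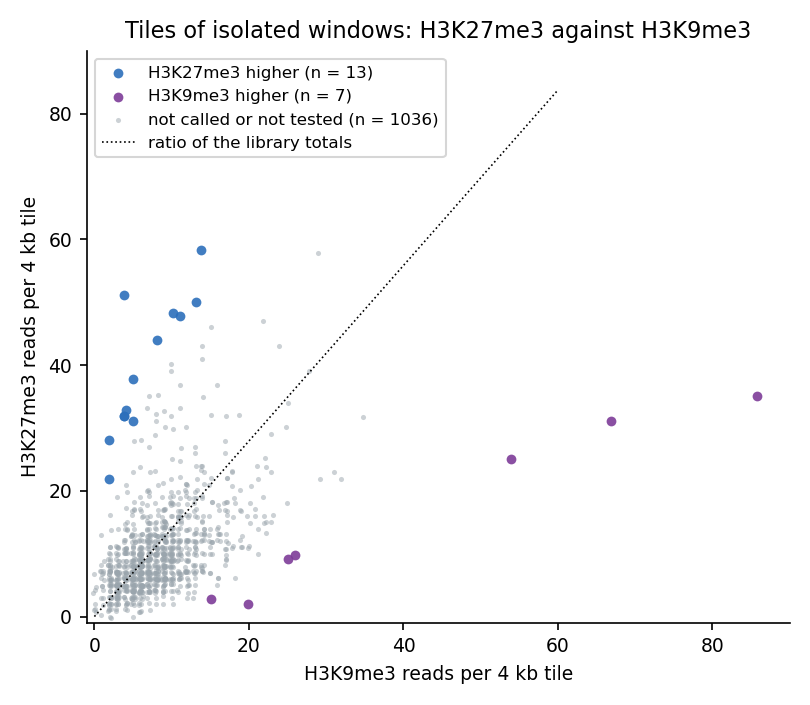
H3K27me3 reads (y axis) against H3K9me3 reads (x axis) in each of the 1056 tiles of isolated windows, with points moved by up to 0.25 reads so that they do not hide each other, and the dotted line at the ratio of the 2 library totals. The 13 tiles called for H3K27me3 lie to the upper left and the 7 called for H3K9me3 to the right of the line or below it.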

How the data were processed

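ChIP-seq reads of 3 marks and WCE, 1 library each, were used as the authors deposited them, as read positions whose sign gives the strand. Per the file headers, reads were aligned to mm8 with Bowtie (e 70, k 2, m 2, n 2, l 36), so reads with more than 2 positions were dropped and highly repeated sequence was not measured. The submitters' processing notes name Bowtie too, and its version is not given in the sources used here. Per the labels' protocols, chromatin was sonicated to about 500 bp and amplified for 18 cycles, with inserts of 50 to 200 nt kept. Reads with 1 position were collapsed to 1 per signed position and moved 60 bp along their strand. Distances between runs are the bases between their edges, and 200 kb or less counted as within. Flanks are tiles 20 to 100 kb, and surroundings 20 to 200 kb, from the edges, without counted tiles. Ratios to WCE were scaled by autosomal totals. The binomial test was tested on data simulated with counting error only, so spread beyond counting error was not covered. Named windows are the leading 5 by H3K4me3 reads, ratio, distance, run length, H3K27me3 or H3K9me3 reads, up to 5 called tiles per direction, and the leading 3 by reads with 2 positions; ties go by position, and a few more serve as examples of values at an extreme. Members and rules were chosen with earlier results of these data known. No genome or annotation of mm8 was used here, so no gene or sequence was assigned. Counting and tests ran in Python 3.11.15 with scipy 1.17.1 and numpy 2.4.6, and figures in matplotlib 3.10.9. Alternatives to each step are given in the closing section.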

Additional observations from a re-analysis of the deposited data

Results flagged for a closer look

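Reads with 2 reported positions form data outside the main count. In isolated windows, such reads of H3K4me3 exceeded those of WCE, while the intervals of H3K27me3 and H3K9me3 included 1. Of such reads the windows held 1344 for H3K4me3, 184 for H3K27me3, 143 for H3K9me3 and 166 for WCE. After scaling by the totals of such reads, H3K4me3 over WCE was 9.22 (95% exact interval 7.84 to 10.9), H3K27me3 over WCE 1.10 (0.886 to 1.36) and H3K9me3 over WCE 1.03 (0.820 to 1.30). In the other runs H3K4me3 over WCE was 5.90 (5.72 to 6.08), with 24708 H3K4me3 and 4772 WCE reads. The signal in isolated windows was concentrated, since 639 of 816 windows held none of these H3K4me3 reads, 33 held at least 10, and 5 windows held 421. The leading window, chr15:32184001-32192000, held 126, beside 296 H3K4me3 reads with 1 position. At chr7:12176001-12180000 there were 108 beside 96, and at chr10:119872001-119884000 there were 71 beside 397. The files list both positions of such a read, and which of them it came from is not known. These reads come from the same H3K4me3 library that chose the windows and are no independent repeat.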

How the results depend on the processing

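The number of isolated windows stayed within 1.5 times of 816 under 12 of 14 alternatives, and was 1903 with no other tile within 100 kb and 349 within 400 kb. Equal counts did not mean equal windows, since 88.1% were found again with tiles from position 2000 and 88.5% with 2 kb tiles. When tiles from 10 H3K4me3 reads counted as neighbours, the count was lower, at 623, and 76.3% of the 816 windows were found again. The 20 tiles called between H3K27me3 and H3K9me3 became 10 with tiles from position 2000, 11 with 2 kb tiles, 46 and 6 at 100 and 400 kb, 7 at an adjusted p under 0.01 and 13 with no minimum of reads. The shares of all tested tiles called for H3K27me3 and for H3K9me3 were 0.905% and 0.340%, 0.840% and 0.265%, 0.889% and 0.326% at both distances, 0.413% and 0.0974%, and 0.198% and 0.0558% in that order. H3K27me3 over flanks, 2.18, was 2.81 and 1.64 with 2 and 8 kb tiles, 2.13 with repeated positions kept, 2.13 with at least 30 H3K4me3 reads, 2.08 with a ratio of at least 4, 1.92 and 2.57 at 100 and 400 kb, 2.297 with neighbours from 10 reads and 2.25 with flanks from 100 to 200 kb. H3K9me3 over flanks, 2.44, was 3.22, 1.84, 2.34, 2.18, 2.67, 2.52 and 2.54 under those settings other than the 30 reads and the ratio, and 2.34 with flanks from 8 to 40 kb. H3K27me3 over WCE in the surroundings, 0.981, passed to the other side of 1 with 8 kb tiles (1.01), a ratio of at least 4 (1.01), 100 kb (1.06) and median scaling (1.18), and was 0.996 with at least 30 reads, 0.841 at 400 kb and 0.952 with neighbours from 10 reads. H3K9me3 over WCE there, 0.960, was 1.002 with median scaling, 0.976 with 8 kb tiles, 0.968 with repeated positions kept, 0.968 with at least 30 reads, 0.979 with a ratio of at least 4, 0.986 and 0.921 at 100 and 400 kb and 0.942 with neighbours from 10 reads. The cause was not tested, other than that distance, tile size and read minimum change which windows enter. All alternatives kept both marks above their flanks, as WCE was above its own in the main count (2.42). WCE floors of 1 and 6 changed nothing, because 20 reads is the stricter demand. No paired analysis was possible because each group holds 1 library, and for the same reason no library could be left out. Depth limits the calls, since 900 of 1056 tiles reached the 10 reads needed for a test.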

Other observations

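Repeated positions made up 6.59% of H3K4me3 reads and 5.51% of WCE reads in isolated windows, against 6.98% and 5.85% in the other runs, and 5.93% and 6.37% over the autosomes. For H3K27me3 the share was 5.395% in isolated windows, against 5.385% in the other runs and 6.85% over the autosomes. For H3K9me3 it was 5.28% in isolated windows, against 5.50% in the other runs and 8.38% over the autosomes.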
